A study of Mus musculus with 6 samples.

Results

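The 40 genes described here encode proteins that carry a cell through G2 phase, mitosis and cytokinesis: the cyclin B kinase and its regulators, the spindle, the kinetochore, the spindle checkpoint and the machinery that divides the cell. They were chosen by gene name, from a list of 40 names, and all 40 were found once each among the 55401 genes of the deposited table. The study sequenced poly(A) RNA of cultured primary chondrocytes, the cells of cartilage, from mice, in 3 Nf2-knockout and 3 control libraries. Both groups carried the floxed Nf2 gene (Nf2 f/f), deleted in the Nf2-knockout group, and the series describes the cultures as differentiating. No label gives the Cre driver, the age and sex of the animals or whether replicates came from separate animals, and every library name carries the tag D7, whose meaning is not stated. Each p-value sets the group difference against the spread between libraries, which may be technical. As treatment, the control libraries are labelled control and the Nf2-knockout libraries carry a label that names overexpression of TCF21, a transcription factor whose gene Tcf21 had 0, 2 and 0 counts in these libraries and 0 in each control.

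Cells that divide transcribe these genes late in the cell cycle. In cells that rest, the repressor complex DREAM holds them silent, and when cells cycle its MuvB core joins B-MYB and FOXM1 to activate them, through promoter elements that include the cell cycle genes homology region and boxes bound by NF-Y. Nf2 encodes merlin, which acts upstream of the Hippo kinases and restrains YAP and TAZ, coactivators that favour proliferation. In growth plate cartilage, division marks the columnar chondrocytes and ends as cells become hypertrophic. In bulk RNA, a larger share of dividing cells and more RNA per dividing cell cannot be told apart.

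Many transcripts of cell division were higher in the Nf2-knockout cultures, in 7 of the 8 roles into which the genes were grouped. Of the 40 genes, all of which passed the filter on low counts, 17 rose and 0 fell at an adjusted p under 0.05 by edgeR, where 4.11% of all 18218 tested genes rose and 5.18% fell (9.29% in either direction). At an unadjusted p under 0.05, 34 of the 40 were higher and 0 lower, against 11.6% and 13.2% of all tested genes, and DESeq2 called 30 higher (7.85% of all genes) and 0 lower (8.37%). Each of the 40 had a log2 fold change above 0, from 0.36 for Incenp to 1.39 for Cdc25c, as did 48.9% of all tested genes. Their median was 0.81, equal to 1.75-fold, with quartiles of 0.61 and 0.94. Over all tested genes the median was −0.01, with quartiles of −0.31 and 0.29. In 34 of the 40 every Nf2-knockout library lay above every control library, as in 15.5% of all tested genes. Levels are given in CPM, which are counts scaled to library size with TMM factors. Each difference is the fitted log2 ratio of Nf2-knockout to control libraries, with its SE and the adjusted p of edgeR. Genes said to rise, fall or pass do so by edgeR unless another test is named. DESeq2 called 13 of the 40 that edgeR did not.

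The number of genes called depended on single libraries, and the size of the difference varied with them. The 40 genes together held 652, 736 and 893 CPM in Nf2-knockout replicates 1 to 3 and 524, 397 and 430 CPM in control replicates 1 to 3, which is 760 ± 122 against 450 ± 66.1 CPM (SD, n = 3 each), 68.9% higher. Nf2-knockout replicate 3 was the highest library for 37 of the 40 genes, where it was highest for 18.2% of all tested genes. Control replicate 2 was the lowest for 28 of the 40 and for 17.9% of all tested genes. Across the groups, the nearest libraries by these sums were Nf2-knockout replicate 1 and control replicate 1. That Nf2-knockout library exceeded every control for 37 of the 40 genes, as it did for 31.6% of all tested genes. Without Nf2-knockout replicate 3 edgeR called 0 of the 40 (1.9% of all genes), and the smallest adjusted p was 0.0508. By unadjusted p under 0.05 that fit had 24 higher, against 8.94% of all genes. Without control replicate 2 it called 2 (1.81%), and without control replicate 1 it called 4 (2.57%). Without control replicate 3 or Nf2-knockout replicate 2 it called 5 (3.34% and 2.68%), and without Nf2-knockout replicate 1 it called 10 (1.76%). With the replicate number as a block it called 2 (2.14%), and with no filter on low counts 11 (2.22%). DESeq2's size factors gave 17 (4.28%) and library totals without TMM factors 21 (6.2%). None of these fits called 1 of the 40 lower, where the shares of all genes called lower were 2.28%, 2.11%, 2.99%, 3.41%, 3.98%, 1.84%, 2.93%, 2.72%, 4.85% and 3.88% in the order given. All 40 stayed above 0 in each of these fits, and of the fits that left out 1 library the median was lowest for Nf2-knockout replicate 3 (0.65) and highest for Nf2-knockout replicate 1 (0.95). No single call was kept in all 6 fits, so the number of them that kept it follows each gene named as risen.

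**Figure D1:**
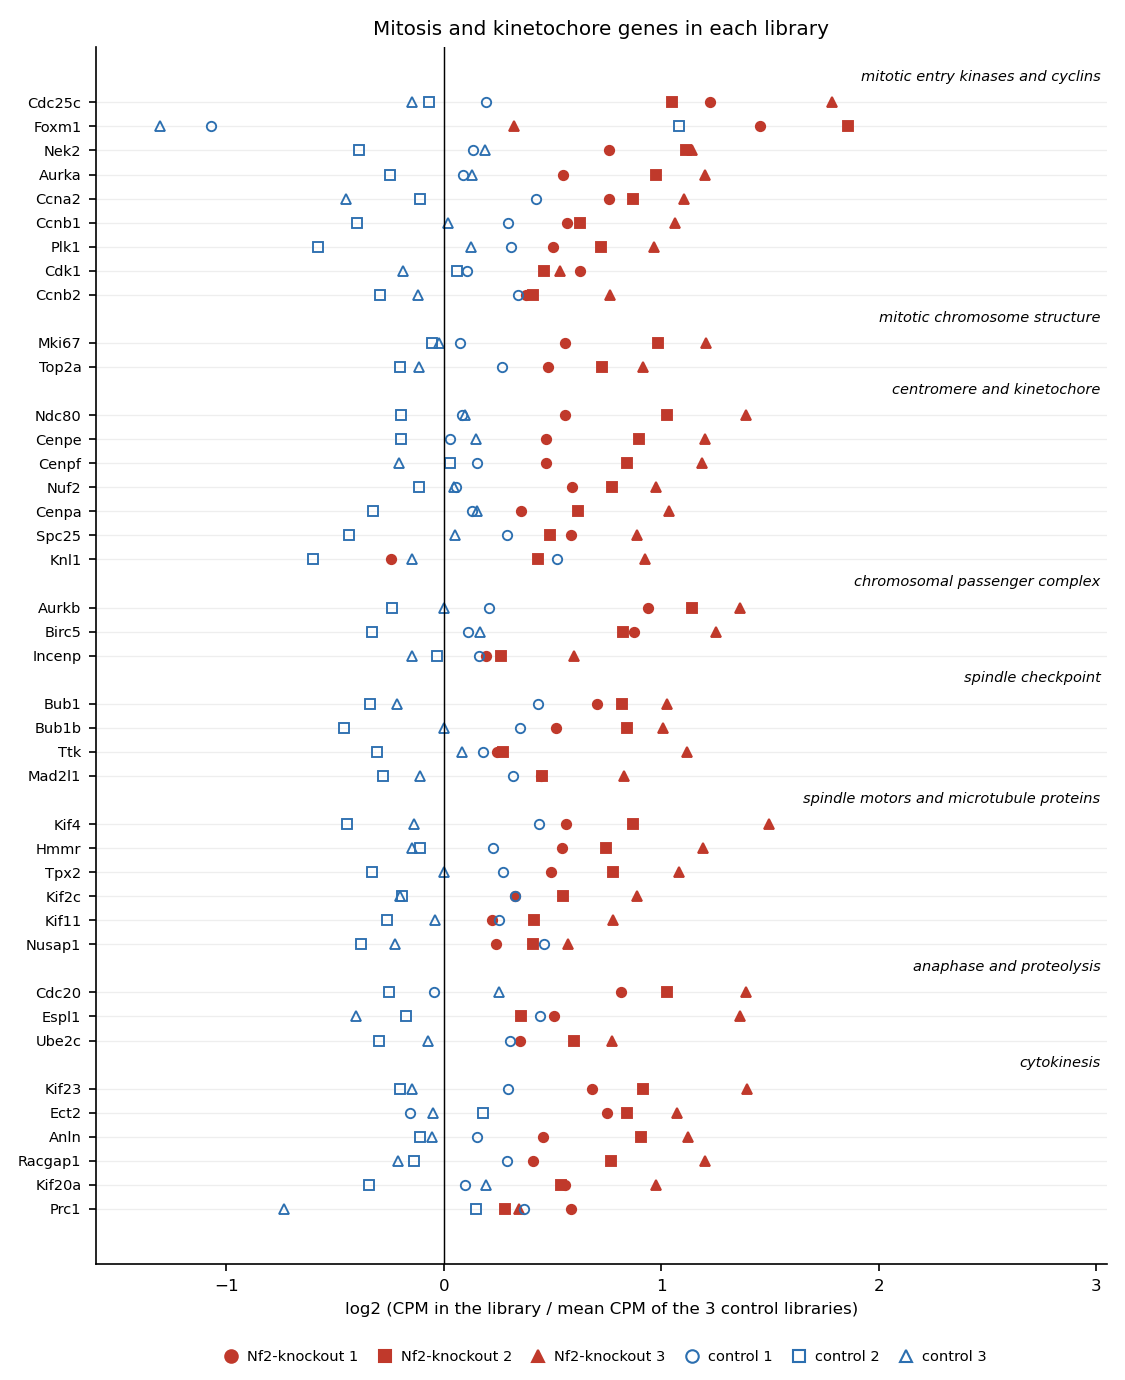
Expression of each gene in each library as log2 of its CPM over the mean of the 3 control libraries, with genes grouped by role, filled red symbols for Nf2-knockout and open blue symbols for control. Nf2-knockout replicate 3 (triangles) is farthest right for 37 of the 40 genes, and in 34 rows all red symbols lie right of all blue ones.

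Nf2 itself stood at 87.9, 101 and 97.3 CPM in the Nf2-knockout group and 126, 133 and 122 CPM in the control group (log2 fold change −0.41, SE 0.0866, adjusted p = 0.0305, kept in 1 of 6 fits without 1 library), so its transcript was lower and not absent. Library totals ran from 50906043 to 63748798 counts. For the marker lists that follow, edgeR called 4.11% of all tested genes higher and 5.18% lower. The 15 chondrocyte markers summed to 1043 to 1967 CPM in Nf2-knockout and 881 to 1303 CPM in control libraries. Comp, Col2a1 and Col11a1 were the most abundant of them. Of the 15, 2 were higher, Col2a1 among them, and 1 was lower, while Comp and Col11a1 did not pass. The direction was mixed, with 8 of the 15 above 0 (median log2 fold change 0.02). Beside them Col1a1, the collagen of bone and fibrous tissue, stood at 2945 and 2932 CPM. Fibroblast and perichondrium markers, led in level by Col3a1, Lum and Dcn, summed to 3511 to 4945 against 6935 to 8375 CPM. Of the 10, 2 were lower, Lum among them, while Col3a1 and Dcn did not pass. The direction was mixed, with 5 of the 10 above 0 (median log2 fold change −0.20). Macrophage and myeloid markers, led by Lyz2, Cd68 and C1qc, summed to 115, 88.0 and 50.1 CPM in Nf2-knockout replicates 1 to 3 and to 163, 439 and 216 CPM in controls, with 6 of 14 tested lower and no gene of the list at 0 in all libraries. The library with the least of these markers, Nf2-knockout replicate 3, had the most mitotic RNA, and the one with the most markers, control replicate 2, had the least. Pericyte and smooth muscle markers, led in level by Acta2, Pdgfrb and Tagln, summed to 674, 645 and 1083 CPM against 512, 454 and 459 CPM. These sums too had their extremes in those libraries, the highest in Nf2-knockout replicate 3 and the lowest in control replicate 2. Of the 12, 3 were higher, Acta2 among them, and 1 was lower, while Pdgfrb and Tagln did not pass. A log2 fold change above 0 was seen in 7 of the 12 (median 0.53). Osteoblast markers, led by Spp1, Col1a1 and Ibsp, summed to 11440 to 13590 against 11710 to 13950 CPM, where edgeR called 0 of 9 and had 1 higher and 2 lower by unadjusted p under 0.05, and DESeq2 called 1 higher and 1 lower. Endothelial markers (Kdr, Egfl7 and Tek among them) were scarce, at 6.4 to 11.4 against 4.25 to 6.9 CPM, with 1 of 6 higher. The part of these other cells in the mitotic transcripts was not tested.

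Many promoters of these genes held the elements through which genes of late cell cycle are known to be activated. The genes were chosen by name for such roles, so a high share of these elements is not independent of that choice. RefSeq promoters on GRCm38.p6, from 250 bases before to 50 after a start site, were matched by symbol for 33 of the 40 genes. The cell cycle genes homology region was searched as TTTGAA and the NF-Y box as CCAAT, each on both strands. TTTGAA occurred in 25 of the 33 (75.8%), against 14.9% of 11972 tested genes with a promoter entry and 20.2% of all 27025 genes with such an entry. CCAAT also occurred in 25 of the 33 (75.8%), against 42.8% of tested genes and 41.1% of all, and at least 2 copies in 51.5%, against 16.3% and 13.3%. Both stood together in 63.6% of these promoters and in 6.2% of tested genes and 8.0% of all. The variant TTTAAA was found in 27.3%, against 11.5% and 14.9%. The TEAD box, searched as CATTCC, was found in 15.2%, against 14.9% and 16.6%. Matches of TTTGAA lay close to the start site: 23 of the 33 genes had one between −60 and 50, where 4.3% of tested genes and 6.4% of all do. The median log2 fold change was 0.80 for the 25 genes with TTTGAA and 0.82 for the 8 without (Birc5, Bub1, Ccnb1, Cenpe, Mad2l1, Nek2, Nuf2 and Nusap1), a difference that was not tested. A match is a run of letters and not a measured binding site.

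The promoters of 6 genes are shown, for the kinase of mitotic entry, both genes of chromosome structure, a passenger subunit and the genes with the highest and the lowest mean FPKM, each as the 150 bases before the RefSeq start site, 5′ to 3′ on the strand of the gene, with TTTGAA and CCAAT or their reverse complements in capitals. Cdc20, Cdk1, Top2a, Mki67 and Espl1 hold both elements, and Birc5 holds neither in its matched window and is shown for contrast. Their last 9 (Cdc20), 26 (Cdk1) and 27 (Espl1) bases lie inside the gene as the deposited table places it, and the others lie upstream of it.
Cdc20 (chr4:118437344-118437493, minus strand): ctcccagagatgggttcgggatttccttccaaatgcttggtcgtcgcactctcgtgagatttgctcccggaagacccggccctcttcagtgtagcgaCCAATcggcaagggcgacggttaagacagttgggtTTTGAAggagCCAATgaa
Cdk1 (chr10:69352913-69353062, minus strand): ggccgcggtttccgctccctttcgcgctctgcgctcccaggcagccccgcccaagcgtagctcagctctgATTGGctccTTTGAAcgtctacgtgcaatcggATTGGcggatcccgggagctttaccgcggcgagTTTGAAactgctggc
Top2a (chr11:99024190-99024339, minus strand): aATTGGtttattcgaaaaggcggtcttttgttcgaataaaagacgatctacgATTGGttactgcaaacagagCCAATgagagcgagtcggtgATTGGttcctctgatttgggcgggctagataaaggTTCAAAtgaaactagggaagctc
Mki67 (chr7:135716380-135716529, minus strand): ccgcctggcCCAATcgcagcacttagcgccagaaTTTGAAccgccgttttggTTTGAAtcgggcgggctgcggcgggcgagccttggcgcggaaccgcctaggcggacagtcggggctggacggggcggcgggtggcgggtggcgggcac
Espl1 (chr15:102296143-102296292, plus strand): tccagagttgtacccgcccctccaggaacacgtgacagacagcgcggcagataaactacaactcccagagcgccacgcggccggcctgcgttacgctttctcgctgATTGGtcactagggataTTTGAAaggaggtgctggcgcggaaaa
Birc5 (chr11:117849087-117849236, plus strand): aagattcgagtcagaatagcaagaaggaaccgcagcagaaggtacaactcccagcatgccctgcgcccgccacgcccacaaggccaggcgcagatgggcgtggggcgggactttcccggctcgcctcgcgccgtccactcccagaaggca

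Cdc20 shows the close arrangement, with TTTGAA at −18 and NF-Y boxes on both sides of it. Cdk1 has TTTGAA at −71 and −15, with NF-Y boxes at −80 and −48. Birc5 rose by 1.00 without either element in its matched window, which holds the variant TTTAAA at −220. Cdk1, with 2 copies of TTTGAA, rose by 0.54. Over all matched genes the log2 fold changes ran from 0.41 to 1.10 with TTTGAA and from 0.41 to 1.01 without it.

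**Figure D2:**
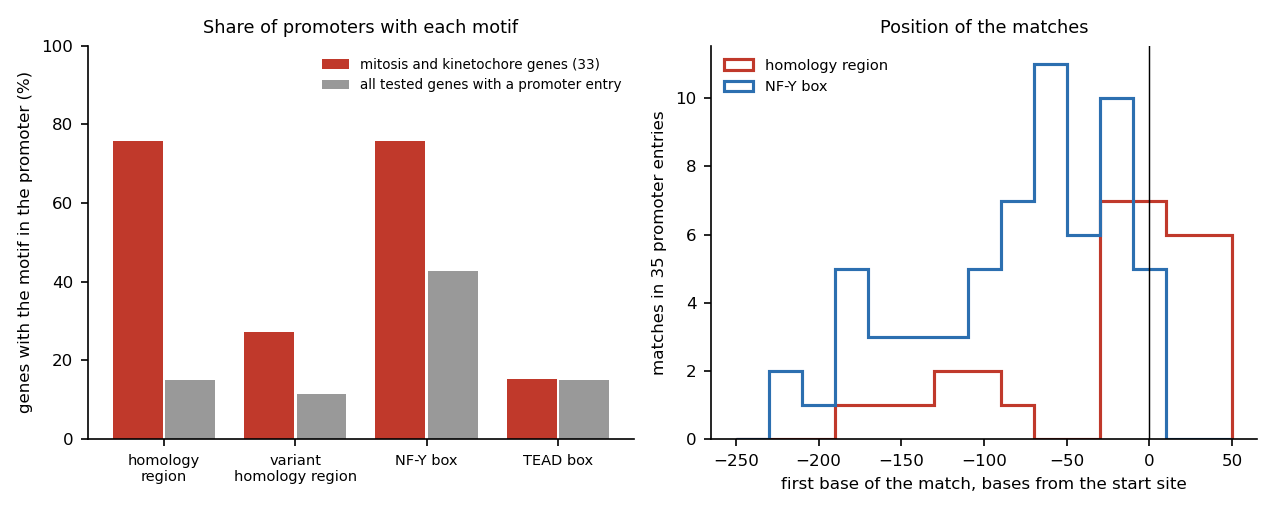
Left, percentage of genes whose 300-base promoter holds each motif, for the 33 matched mitosis and kinetochore genes (red) and for all tested genes with a promoter entry (grey). Right, positions of the matches in the 35 promoter entries of the 33 genes, relative to the start site, in bins of 20 bases; matches of the homology region gather near the start site and NF-Y boxes mostly lie upstream of it.

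Genes of mitotic entry were led by the phosphatase that activates the cyclin B kinase and by the Aurora A and NEK2 kinases. Of these 9 genes 4 rose: Cdc25c, Nek2, Aurka and Cdk1. Cdc25c, whose product removes the inhibitory phosphates of CDK1, was at 3.45, 3.06 and 5.09 CPM in Nf2-knockout and 1.69, 1.41 and 1.33 CPM in control libraries. The groups were well apart, with a log2 fold change of 1.39 (SE 0.281, adjusted p = 0.0269, 1 of 6 fits), although this was among the least abundant of the genes, with 76 to 340 counts per library. Nek2 (chromosome 1, 191821444 to 191833050), a kinase that lets the centrosomes part, held 10.1, 12.9 and 13.1 CPM against 6.53, 4.54 and 6.80 CPM (1.01, SE 0.208, adjusted p = 0.0283, 1 of 6 fits). Aurka, the kinase of spindle poles, held 11.0, 14.7 and 17.3 CPM against 7.98, 6.32 and 8.20 CPM (0.93, adjusted p = 0.0352, 1 of 6 fits).

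Cdk1, the kinase that drives entry into mitosis, had the smallest SE of the 40 genes and a difference below their median. It held 38.6, 34.5 and 36.2 CPM in Nf2-knockout and 27.0, 26.1 and 22.0 CPM in control libraries, and rose by 0.54 on the log2 scale (SE 0.115, adjusted p = 0.0315, 0 of 6 fits). Its highest library was Nf2-knockout replicate 1, as it was for Prc1 alone among the others. The cyclins that bind it did not pass edgeR. By DESeq2 the adjusted p was 0.00271 for Ccna2, 0.00821 for Ccnb1 and 0.0898 for Ccnb2. Ccna2 (cyclin A2) held 19.4, 21.0 and 24.7 CPM against 15.4, 10.6 and 8.41 CPM (0.92, adjusted p = 0.0514), and without control replicate 1 its adjusted p was 0.0256. Ccnb1 (cyclin B1) stood at 30.6 ± 6.0 against 18.0 ± 4.24 CPM (0.77, adjusted p = 0.0697) and Ccnb2 (cyclin B2) at 18.1 ± 2.78 against 12.6 ± 2.96 CPM (0.53, adjusted p = 0.155). Pseudogenes named after both B cyclins are in the table with 473 and 308 counts over all libraries, against 8726 and 5489 for the genes, so reads may have been split between them. Plk1, a kinase of mitotic entry and cytokinesis, stood at 18.5 ± 2.97 against 11.1 ± 3.26 CPM (0.74, adjusted p = 0.112 by edgeR and 0.0326 by DESeq2). In none of these 4 did the groups overlap.

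Foxm1, which encodes the transcription factor of late cell cycle genes, behaved unlike the genes that it is known to activate. It held 10.2, 13.5 and 4.66 CPM in Nf2-knockout and 1.77, 7.88 and 1.51 CPM in control libraries. Control replicate 2, the lowest library for most of the 40 genes, was the highest control for Foxm1, and Nf2-knockout replicate 3, the highest library for most, was the lowest Nf2-knockout library for it. Its log2 fold change of 1.35 had the largest SE of the 40 (0.695) and did not pass (adjusted p = 0.289). Without control replicate 2 it was 2.53 with an adjusted p = 0.049, and without control replicate 3 it was 0.97 with an adjusted p = 0.461. The deposited FPKM gave the same order of libraries, from 0.218 in control replicate 3 to 2.17 in Nf2-knockout replicate 2.

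Both genes of mitotic chromosome structure rose. Mki67, which encodes the Ki-67 protein that coats mitotic chromosomes, held 24.9, 33.4 and 38.9 CPM in Nf2-knockout and 17.8, 16.2 and 16.6 CPM in control libraries. Its controls were the least spread of the 40 genes, with an SD of 4.79% of the mean, and its Nf2-knockout libraries varied by 21.8% of theirs. It rose by 0.94 on the log2 scale (SE 0.17, adjusted p = 0.0195, 1 of 6 fits). Top2a, the topoisomerase that untangles sister chromatids, was the most abundant of the genes by counts, at 48.6, 57.7 and 65.7 CPM against 42.0, 30.3 and 32.2 CPM (0.72, SE 0.165, adjusted p = 0.04, 1 of 6 fits).

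Of the 7 genes of the centromere and kinetochore, the protein structure that ties chromosomes to spindle microtubules, 4 rose. Ndc80 and Nuf2 encode partners in the NDC80 complex, the microtubule-binding arm of the kinetochore. Ndc80 held 5.57, 7.71 and 9.93 CPM against 4.01, 3.30 and 4.05 CPM (1.03, SE 0.248, adjusted p = 0.0461, 1 of 6 fits). Nuf2 held 14.6, 16.6 and 19.1 CPM against 10.1, 9.0 and 10.1 CPM (0.79, SE 0.143, adjusted p = 0.0195, 2 of 6 fits). Their partner Spc25 held 19.0, 17.8 and 23.4 CPM against 15.5, 9.37 and 13.1 CPM, did not overlap and did not pass (0.66, adjusted p = 0.0986). The large coiled-coil genes rose together: Cenpe, a kinesin of the kinetochore, by 0.89 (adjusted p = 0.047) and Cenpf, a protein of its outer corona, by 0.86 (adjusted p = 0.0481), each in 1 of 6 fits. Cenpa, the histone H3 variant that marks the centromere, stood at 14.5 ± 3.52 against 8.93 ± 1.57 CPM (0.70, adjusted p = 0.102). Knl1, the scaffold that recruits the checkpoint kinase BUB1, overlapped between groups: Nf2-knockout replicate 1, at 2.57 CPM, lay below control replicates 1 and 3, at 4.37 and 2.75 CPM (0.45, adjusted p = 0.547).

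The chromosomal passenger complex, which corrects faulty attachments and then directs cytokinesis, moved unevenly. Its kinase gene Aurkb (chromosome 11, 69045647 to 69051664) held 7.26, 8.36 and 9.75 CPM in Nf2-knockout and 4.37, 3.21 and 3.78 CPM in control libraries. This was the smallest adjusted p of the 40 genes (log2 fold change 1.16, SE 0.202, adjusted p = 0.0171) and the call kept most often, in 4 of 6 fits, missing when Nf2-knockout replicate 3 (adjusted p = 0.063) or control replicate 2 (adjusted p = 0.0585) was left out. Birc5, which encodes the subunit survivin, held 19.5, 18.8 and 25.3 CPM against 11.5, 8.46 and 11.9 CPM (1.00, SE 0.186, adjusted p = 0.0211, 2 of 6 fits). Incenp, the scaffold that activates Aurora B, had the smallest difference of the 40 genes, at 16.8, 17.6 and 22.2 CPM against 16.4, 14.4 and 13.2 CPM. Its groups were apart by a narrow margin and its log2 fold change of 0.36 (SE 0.153) did not pass (adjusted p = 0.198). The differences between subunits were not tested.

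None of the 4 genes of the spindle checkpoint, which holds anaphase until every kinetochore is attached, passed edgeR, although their groups did not overlap. At an unadjusted p under 0.05 edgeR had 3 higher, and DESeq2 called 3. Bub1 held 7.41, 8.03 and 9.27 CPM against 6.14, 3.60 and 3.92 CPM (0.85, adjusted p = 0.0784). In that gene control replicate 1 stood above the other controls, and without it the log2 fold change was 1.13 (adjusted p = 0.0358). Bub1b, which encodes BUBR1, stood at 14.5 ± 2.44 against 8.31 ± 2.26 CPM (0.80, adjusted p = 0.0816). Mad2l1, whose product MAD2 inhibits CDC20, stood at 23.7 ± 3.72 against 15.8 ± 3.47 CPM (0.59, adjusted p = 0.108). Ttk, the kinase MPS1 that starts the checkpoint signal, held 4.69, 4.77 and 8.59 CPM against 4.49, 3.19 and 4.19 CPM, so that its difference lay mostly in Nf2-knockout replicate 3 (0.61, adjusted p = 0.262, and 0.26 without that library).

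**Figure D3:**
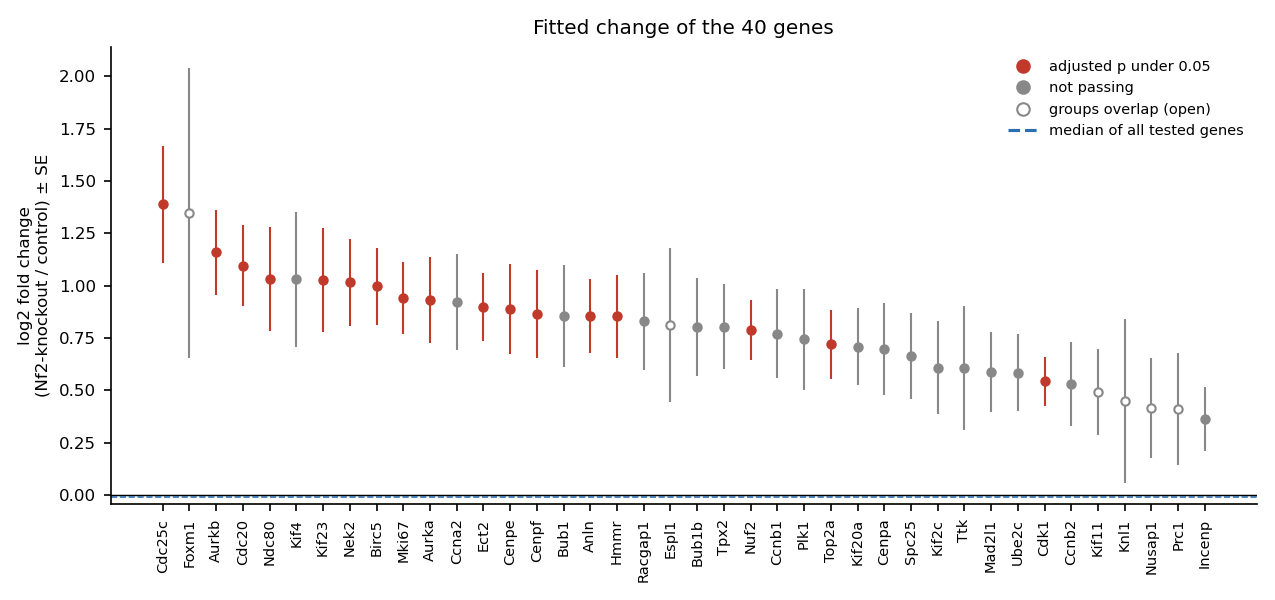
Fitted log2 fold change of Nf2-knockout over control for each of the 40 genes with its SE, in order of size; red marks an edgeR adjusted p under 0.05, open symbols mark the 6 genes whose groups overlapped, and the dashed line is the median of all tested genes (−0.01). All 40 symbols lie above 0, and Foxm1 has the widest error.

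Among 6 genes of spindle motors and microtubule proteins, 1 rose. Hmmr, a microtubule-binding protein of the spindle poles, held 19.1, 22.0 and 30.0 CPM against 15.4, 12.2 and 11.9 CPM (0.85, adjusted p = 0.0408, 0 of 6 fits). Tpx2, which activates Aurora A on the spindle, stood at 35.1 ± 7.18 against 20.1 ± 4.15 CPM (0.80, adjusted p = 0.0534). The chromokinesin gene Kif4 held 6.11, 7.56 and 11.7 CPM against 5.60, 3.04 and 3.77 CPM, the widest spread of Nf2-knockout libraries relative to the mean in this group, at 34.2% (1.03, SE 0.323, adjusted p = 0.0996). Pdzd11, a more abundant gene on the opposite strand, shares 832 exonic bases with Kif4, and no source used here says whether counting kept the strands apart. Kif2c, a kinesin that depolymerises microtubules, stood at 11.1 ± 2.20 against 7.26 ± 1.60 CPM (0.61, adjusted p = 0.142). Kif11, the motor that separates spindle poles, and Nusap1, a microtubule-bundling protein, overlapped between groups through control replicate 1 (0.49 and 0.41, adjusted p = 0.196 and 0.345).

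Cdc20, the activator of the anaphase-promoting complex, had the highest mean of the 40 genes per transcript length and the fourth difference in size. In deposited FPKM, which are scaled to length, it stood at 10.9, 12.6 and 16.5 with Nf2 deleted, against 5.66, 4.88 and 6.89 in the controls. In CPM it held 22.0, 25.5 and 32.8 against 12.1, 10.5 and 14.9, with a log2 fold change of 1.10 (SE 0.194, adjusted p = 0.0183, 3 of 6 fits). It lies on chromosome 4, 118432901 to 118437352 (GRCm38, minus strand), where 2.8% of its exonic bases are shared with Elovl1 on the other strand. Ube2c, the ubiquitin-conjugating enzyme of the same complex, was near it in level, at 9.82 ± 1.52 against 6.11 ± 1.33 FPKM, and did not pass (0.58, adjusted p = 0.102). Its nearest libraries, Nf2-knockout replicate 1 and control replicate 1, were at 23.3 and 22.6 CPM. Espl1, which encodes separase, the protease that cuts cohesin, was the least abundant per length, at 0.401 ± 0.168 against 0.213 ± 0.0686 FPKM, and overlapped between groups (0.81, adjusted p = 0.227).

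Of the 6 genes of cytokinesis, 3 rose. Ect2, the exchange factor that switches on RhoA at the cell equator, held 11.3, 12.1 and 14.2 CPM against 6.05, 7.64 and 6.52 CPM (0.90, SE 0.163, adjusted p = 0.0195, 3 of 6 fits). Its lowest control was replicate 1, in contrast to most of the genes. Anln, the actin-binding scaffold anillin, held 36.3, 49.6 and 57.6 CPM against 29.4, 24.5 and 25.5 CPM (0.85, adjusted p = 0.0298, 1 of 6 fits). Kif23 and Racgap1 encode the centralspindlin pair that recruits ECT2. Kif23 held 6.87, 8.09 and 11.3 CPM against 5.26, 3.73 and 3.87 CPM (1.03, adjusted p = 0.0467, 0 of 6 fits). Racgap1 stood at 23.2 ± 6.40 against 13.1 ± 2.56 CPM, did not overlap and did not pass (0.83, adjusted p = 0.0716).

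The other genes of cytokinesis are Kif20a and Prc1. Kif20a, a kinesin of the midzone, stood at 37.4 ± 6.70 against 22.9 ± 4.31 CPM (0.71, adjusted p = 0.0597), and 29.3% of its exonic bases are shared with Cdc23 on the opposite strand. Prc1, which bundles the antiparallel microtubules of the midzone, held 27.6, 22.4 and 23.5 CPM in Nf2-knockout and 23.8, 20.4 and 11.1 CPM in control libraries. Its groups overlapped, and its difference lay mostly in the low value of control replicate 3 (0.41, adjusted p = 0.406, and 0.15 without that library).

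Per transcript length the 40 genes spanned a wide range of levels in these cultures. Mean FPKM over the 6 libraries ran from 0.307 for Espl1 to 9.59 for Cdc20, and the median over the genes was 2.80 FPKM in Nf2-knockout and 1.61 FPKM in control libraries. After Cdc20 the highest were Ccnb2 (11.0 ± 1.80 against 7.13 ± 1.71 FPKM), Ube2c, Kif20a (8.04 ± 1.52 against 4.58 ± 0.852 FPKM) and Plk1 (7.85 ± 1.33 against 4.37 ± 1.3 FPKM). In control libraries alone Ccnb2 and Ube2c stood above Cdc20. Neighbours in this order differed in each group by less than the sum of their SDs. Tested on log2(FPKM + 1) by limma, 16 of the 37 genes with a mean of at least 0.5 FPKM were higher and 0 lower (7.52% and 4.39% of all 14001 genes), and 12 of the 16 were among the 17 called from counts. Cdc25c, Knl1 and Espl1 were below that level. With log2(FPKM + 0.1) 15 of the 37 were higher and 0 lower (7.43% and 4.37%), and with no filter 4 of the 40 were higher and 0 lower (2.45% and 1.47%). At an unadjusted p under 0.05 limma had 33 of the 37 higher, against 19.8% of all genes.

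**Figure D4:**
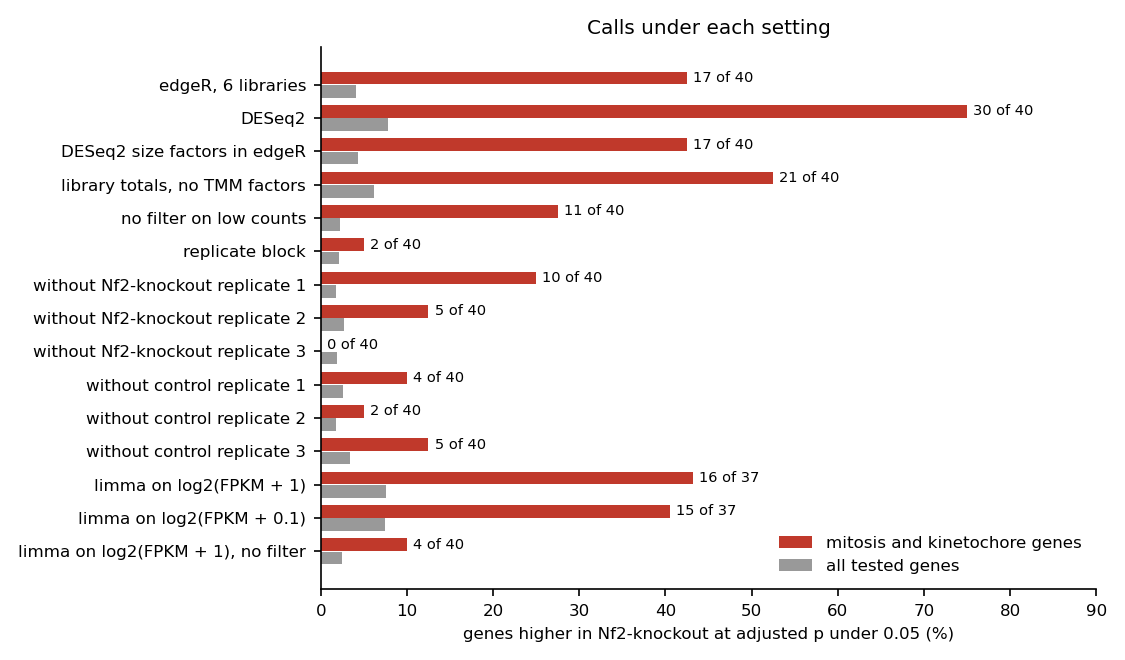
Percentage of genes called higher in Nf2-knockout libraries at an adjusted p under 0.05 in each fit, for the mitosis and kinetochore genes (red, with counts) and all tested genes (grey). The 40 genes give 17 calls with all 6 libraries, 30 with DESeq2 and 0 without Nf2-knockout replicate 3.

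Other genes of cell division were counted in 8 lists for comparison, where by edgeR 4.11% of all tested genes rose and 5.18% fell. Of 38 other spindle and centrosome genes 6 rose and 1 fell (median log2 fold change 0.60), led by Kif20b, a kinesin of late cytokinesis (0.90, adjusted p = 0.0163, 3 of 6 fits), the centriole kinase gene Plk4 (0.72) and Kifc1, a minus-end motor (0.94). The fall was Kif13b, a kinesin known for vesicle transport (−0.86, adjusted p = 0.0143, 4 of 6 fits). Of 37 other kinetochore and centromere genes 2 rose and 0 fell (median 0.35): Cenps by 1.35 and Cdca8, the passenger subunit borealin, by 0.76. Of 30 S phase genes 11 rose and 0 fell (median 0.46), with Rrm2, Ccne1, Mcm2 and Uhrf1 having the smallest p-values. These 4 calls were each kept in 6 of 6 fits without 1 library. Uhrf1, which keeps DNA methylation in place after replication, rose by 1.15 (adjusted p = 0.0108).

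Of 17 genes of the anaphase-promoting complex 0 rose and 0 fell by edgeR (median 0.08), with 1 higher at an unadjusted p under 0.05 and 1 by DESeq2. Of 20 condensin and cohesin genes 1 rose, the condensin subunit gene Ncapg (1.03, adjusted p = 0.0479), and 1 fell, the cohesin regulator gene Pds5b (−0.53, adjusted p = 0.0205). Among 14 genes of MuvB, DREAM and MYB 0 passed edgeR (median −0.10), while 3 were higher and 2 lower by unadjusted p under 0.05, and 2 higher and 1 lower by DESeq2. Of the 3 NF-Y subunit genes Nfyc fell (−0.53, adjusted p = 0.0308). Among 13 brakes and phosphatases of mitotic entry 3 rose and 0 fell: Wee1, the kinase that inhibits CDK1 (0.86, adjusted p = 0.0282), Pkmyt1, its membrane-bound relative (0.92, adjusted p = 0.0463), and Cdc25b, a phosphatase that opposes both (0.69, adjusted p = 0.0339). Over all 172 genes of these lists 23 rose and 3 fell, with a median of 0.32. Outside the S phase genes, Kif13b and Kif20b, the genes named from these lists kept their call in at most 1 of 6 fits. Of 312 tested genes that the deposited table annotates with cell division, outside the 40, 25 rose and 6 fell with a median of 0.12. Differences between the lists were not tested.

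**Figure D5:**
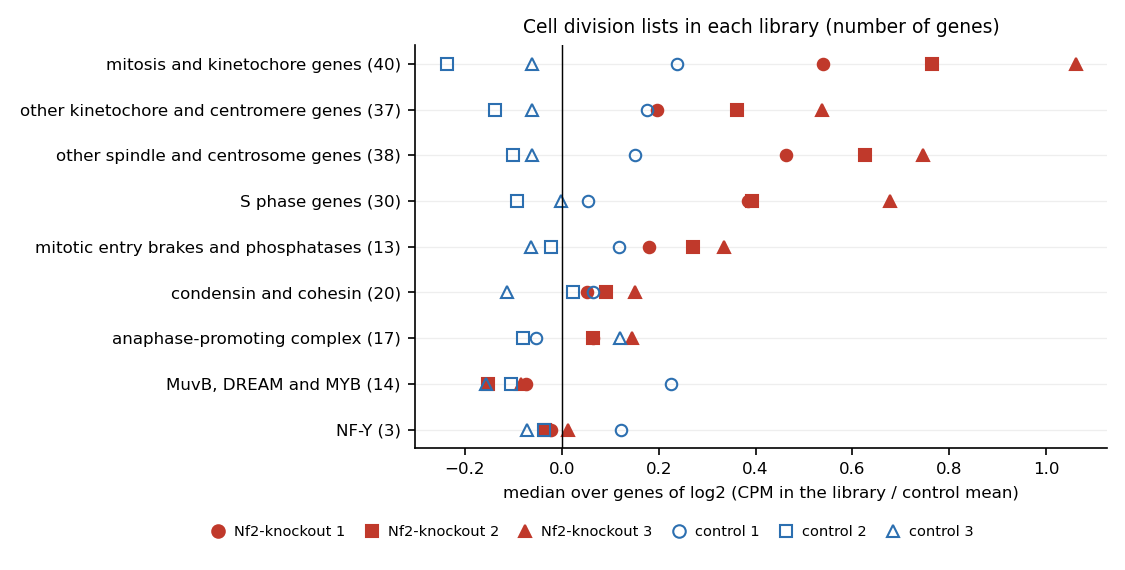
Median over the genes of each list of log2 CPM over the control mean, in each library, with filled red symbols for Nf2-knockout and open blue symbols for control. The mitosis and kinetochore genes stand at 0.54, 0.76 and 1.06 in Nf2-knockout replicates 1 to 3, while in the anaphase-promoting complex, condensin and cohesin, MuvB and NF-Y lists the groups overlap.

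The S phase genes summed to 1035, 1011 and 1086 CPM in Nf2-knockout replicates 1 to 3 and to 663, 561 and 619 CPM in controls. Rrm2 alone, the ribonucleotide reductase subunit gene, held 366, 305 and 310 CPM of the Nf2-knockout sums and 139, 76.5 and 83.4 CPM of the control sums. The medians of log2 CPM over the control mean were 0.39, 0.39 and 0.68 for the S phase genes and 0.54, 0.76 and 1.06 for the mitotic genes in the same libraries, and in both lists control replicate 2 was the lowest.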

How the data were processed

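RNA of 6 libraries was compared, 3 Nf2-knockout and 3 control, grouped by sample title. The authors deposited 1 table with a whole-number count and an FPKM per gene and library, per the file headers; a count of 0 has an FPKM of 0.0001. Tools listed, without roles, per the submitters' processing notes: StringTie 1.3.4d, HISAT2 2.0.4, edgeR and cutadapt 1.9. The build, the counting method and its use of strand are not given in the sources used here, and counts may be rounded estimates. Positions equal GENCODE M21 (GRCm38) for 94.2% of 55141 matched genes.

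Counts were tested with edgeR 4.0.16 in R 4.3.3 (filterByExpr, TMM, glmQLFit and glmQLFTest on group, two-sided, Benjamini-Hochberg over 18218 genes, threshold 0.05). The SE was taken as the size of the log2 difference divided by the root of its F statistic. Alternatives were DESeq2 1.42.0, its size factors, library totals, no filter, a replicate block, leaving out each library, and limma 3.58.1 on log2(FPKM + 1) or log2(FPKM + 0.1). Tests were checked on simulated counts. Promoter letters were counted in RefSeq sequences of GRCm38.p6. An exact permutation test of 3 against 3 libraries cannot go below p = 0.1.

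The 40 genes and the lists were chosen with earlier results of these data known. All 40 are named, with up to 4 called genes of smallest p per list and the 3 most abundant markers per cell type. Totals of 50906043 counts or more gave each of the 40 genes at least 76 counts in every library.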

Additional observations from a re-analysis of the deposited data

How the results depend on the processing

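All 40 genes (37 on FPKM with the filter) kept a log2 fold change above 0 under every alternative, with medians from 0.59 to 0.95, and 0 were called lower. The number called higher, 17 in edgeR, was 30 with DESeq2, 17 with its size factors, 21 with library totals, 11 with no filter on low counts, 16 and 15 with limma on log2(FPKM + 1) and log2(FPKM + 0.1), 4 with limma without a filter, and from 0 to 10 with 1 library left out. Calls over the 40 genes and the 8 other lists, 43 in edgeR, were 85 with DESeq2, 27 with no filter, 17 with limma without a filter and from 5 to 21 with 1 library left out. With the replicate number as a block these counts were 2 (Cdc20 and Birc5) and 11, with a median of 0.81. Whether the numbers pair the libraries cannot be decided here. Deviations from the group means of same-numbered libraries correlated at −0.156, 0.014 and 0.021 across genes. Not every library correlated best with its own number, but deviations among 3 libraries a group are too few to settle pairing. Leaving out a library tests fewer samples and dropping the filter tests more genes; the cause of the other changes was not tested. How far the spread between libraries, with 3 a group, or depth limits these values was not tested.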
